A study of Mus musculus with 8 samples.

Results

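The perivenous Wnt target genes described here are 10 genes, taken by name from the 35204 gene symbols of the deposited table: Axin2, Lgr5, Rnf43, Znrf3, Nkd1, Sp5, Tbx3, Lect2, Slc1a2 and Rhbg. All 10 were found. They were divided by role into 6 genes of Wnt feedback and reception (Axin2, Lgr5, Rnf43, Znrf3, Nkd1 and Sp5) and 4 zonated hepatocyte targets (Tbx3, Lect2, Slc1a2 and Rhbg). Poly-A RNA of liver pieces from wild-type C57BL/6J mice made up 8 sequenced libraries. Mice with no treatment gave 3 of them, the controls. The 5 other libraries, called TAZ-CCl4 libraries, came from mice that received EF1a-TAZS89A, a variant of the Hippo pathway coactivator TAZ under the EF1a promoter, by HTVI (hydrodynamic tail vein injection, which brings plasmid DNA mainly into hepatocytes), and 30 doses of the liver toxin carbon tetrachloride (CCl4), 3 a week for 10 weeks. No library received only TAZ S89A or only CCl4, and the labels give the controls and the TAZ-CCl4 libraries different project IDs, so the construct, the toxin and the project cannot be told apart. Ages are not in the labels, nor is a statement of 1 mouse per library, and the spread behind each p-value is that between these samples only and may be partly technical.

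In the liver lobule, Wnt ligands and R-spondins from the endothelium of the central vein stabilise beta-catenin in the hepatocytes nearest to it, and these perivenous hepatocytes make a set of enzymes and transporters that periportal hepatocytes lack. The same signal induces its own regulators. AXIN2 is a scaffold of the complex that destroys beta-catenin, NKD1 binds Dishevelled, and RNF43 and ZNRF3 are membrane ubiquitin ligases that remove Frizzled receptors. LGR5 is an R-spondin receptor that holds these ligases back, and SP5 is a transcription factor that acts on Wnt target genes. Of the zonated targets, TBX3 is a transcription factor, LECT2 a secreted protein, SLC1A2 a glutamate transporter and RHBG an ammonium transporter.

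Promoter sequence is shown first, as a description, and its relation to the changes of the members was not tested. RefSeq windows (build GRCm38.p6) of 300 bases, 250 before and 50 after a gene start, were matched by symbol for 6 members: Axin2, Rnf43, Nkd1, Sp5, Lect2 and Slc1a2. Lgr5, Znrf3, Tbx3 and Rhbg had no entry. The letters of the TCF/LEF motif, through which beta-catenin reaches DNA, were searched on both strands in their 4 forms: the form CTTTGAA, then the form CTTTGAT, besides these the form CTTTGTA, and lastly the form CTTTGTT. Of all 32851 windows, 16.9% held at least 1 of these. Sp5, Lect2 and Slc1a2 held them, and the windows of Axin2, Rnf43 (which has 2 windows) and Nkd1 did not. The 3 windows with a match and that of Axin2 are printed 5′ to 3′ on the strand of the gene, with the TCF/LEF letters in capitals.
Sp5 (chr2:70474673-70474972, plus strand): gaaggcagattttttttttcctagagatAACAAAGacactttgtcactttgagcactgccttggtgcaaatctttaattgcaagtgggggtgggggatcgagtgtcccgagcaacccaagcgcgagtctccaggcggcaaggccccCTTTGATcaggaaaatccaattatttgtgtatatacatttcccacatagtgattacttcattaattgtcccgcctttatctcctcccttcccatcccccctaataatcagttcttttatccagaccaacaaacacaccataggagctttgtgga
Lect2 (chr13:56548489-56548788, minus strand): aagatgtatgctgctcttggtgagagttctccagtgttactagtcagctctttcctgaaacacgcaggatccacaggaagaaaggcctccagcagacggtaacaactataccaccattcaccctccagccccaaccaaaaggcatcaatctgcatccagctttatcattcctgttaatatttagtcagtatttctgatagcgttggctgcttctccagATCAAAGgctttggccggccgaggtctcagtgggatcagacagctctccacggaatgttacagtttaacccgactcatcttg
Slc1a2 (chr2:102706188-102706487, plus strand): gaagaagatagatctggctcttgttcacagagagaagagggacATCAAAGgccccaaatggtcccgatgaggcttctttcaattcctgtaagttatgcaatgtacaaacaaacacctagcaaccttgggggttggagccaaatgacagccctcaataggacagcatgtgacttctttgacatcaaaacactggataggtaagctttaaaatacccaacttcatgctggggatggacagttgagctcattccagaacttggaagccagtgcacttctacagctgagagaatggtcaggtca
Axin2 (chr11:108920099-108920398, plus strand): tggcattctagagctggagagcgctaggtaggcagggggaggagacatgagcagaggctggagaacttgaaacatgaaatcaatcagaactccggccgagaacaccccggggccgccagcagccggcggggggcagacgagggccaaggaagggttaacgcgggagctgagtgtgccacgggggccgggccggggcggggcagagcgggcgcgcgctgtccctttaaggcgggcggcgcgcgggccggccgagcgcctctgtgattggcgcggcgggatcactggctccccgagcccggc
In Sp5 the matches began 222 and 104 bases before the start, in Lect2 32 and in Slc1a2 207 bases before it. The Slc1a2 window belongs to a RefSeq start 47.8 kb inside the GENCODE gene, and the gene-level values do not tell which start was used. The Nkd1 window (chr8:88527383-88527682) and the Rnf43 window at chr11:87699647-87699946 likewise lie inside their GENCODE genes. The lack of a match in these windows says nothing of other starts of these genes. The letters CATTCC, the core of the TEAD motif through which TAZ reaches DNA, stood in 14.7% of all windows and in those of Lect2 and Slc1a2 on either strand, where no such match overlapped a TCF/LEF match. A match is a run of letters, not evidence of binding.

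The 4 zonated targets and, among the feedback group, Lgr5 and Sp5 fell to a small fraction of their control level, while Axin2 and Rnf43 fell less and Znrf3 and Nkd1 did not pass the test. Of the 10 members, 8 were lower and 0 higher (limma, adjusted p under 0.05), against 29.8% of all 14171 tested genes lower and 32.4% higher at the scaling the authors deposited. By group, 4 of 4 zonated and 4 of 6 feedback members were lower, with median log2 fold changes of -6.02 and -1.35, beside 0.03 over all tested genes. Every TAZ-CCl4 library lay below every control for 7 members, against 29.4% of tested genes. All 10 members reached the mean of 10 needed for the test, but Lgr5, Sp5 and Rhbg did so only through the controls, so their difference was partly fixed by the filter. Of the other 7, 5 were lower and 2 did not pass. In these bulk samples fewer cells of a type and less RNA per cell cannot be told apart.

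**Figure D1:**
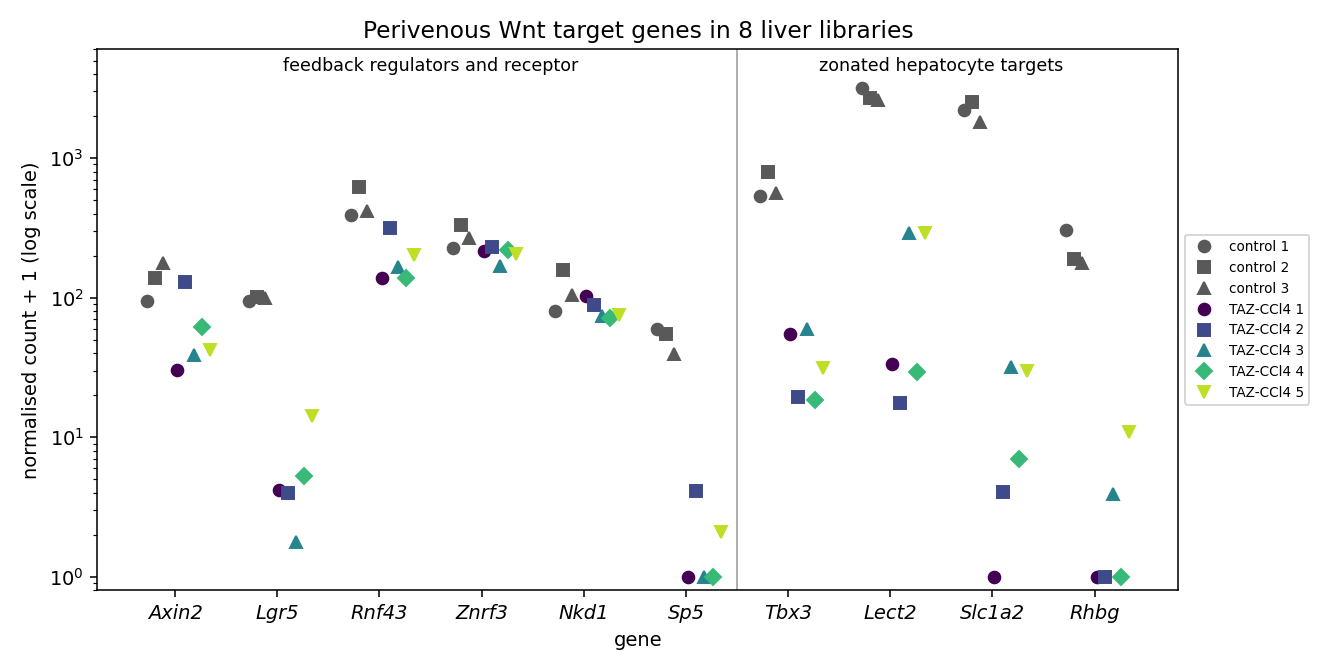
Normalised count + 1 (log axis) of each gene in the 3 control (grey) and 5 TAZ-CCl4 (coloured) libraries, 1 point per library. The groups overlap for Axin2, Znrf3 and Nkd1, and the TAZ-CCl4 libraries lie below all controls for the other 7 genes.

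Axin2 (mm10 chromosome 11, 108920349 to 108950783) stood at 93.7, 138 and 177 normalised counts in control replicates 1 to 3 and at 29.3, 128, 37.8, 61.0 and 41.0 in TAZ-CCl4 replicates 1 to 5. TAZ-CCl4 replicate 2 lay within the control range and the 4 others below it. The mean fell from 136 ± 41.8 (SD, n = 3) to 59.3 ± 39.9 (SD, n = 5), with limma giving a log2 fold change of -1.34 ± 0.44 (SE) at adjusted p = 0.0222. Axin2 no longer passed without control replicate 2 (-1.31, limma adjusted p = 0.0657) and without control replicate 3 (-1.13, limma adjusted p = 0.0956). The antisense gene Gm11670 overlaps its exons, and whether the authors' counting used strand is not given in the sources used here.

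Both ubiquitin ligase genes are on chromosome 11. Rnf43 (87662722 to 87735539) stood at 393, 615 and 419 without treatment and at 136, 315, 164, 137 and 203 after TAZ-CCl4. All 5 lay below the lowest control, with replicate 2 nearest to it. The log2 fold change was -1.36 ± 0.28 (limma, adjusted p = 0.00194). Znrf3 (5276324 to 5444847) stood at 228, 333 and 267 without treatment and at 214, 231, 168, 218 and 204 after TAZ-CCl4. Replicate 2 overlapped the controls, and the log2 fold change of -0.40 ± 0.18 did not pass (limma, adjusted p = 0.0699), although it did without control replicate 1 (-0.53, limma adjusted p = 0.0464). Nkd1 (chromosome 8, 88521354 to 88594884) stood at 79.1, 156 and 104 and at 101, 87.3, 73.5, 70.9 and 73.7. The groups overlapped, and the log2 fold change of -0.43 ± 0.26 did not pass (limma, adjusted p = 0.172).

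Lgr5 (chromosome 10, 115450311 to 115587780) stood at 93.9, 100.1 and 99.2 without treatment and at 3.21, 2.996, 0.779, 4.27 and 13.2 after TAZ-CCl4. The controls were close together and every TAZ-CCl4 library was far below them, replicate 5 the least. The mean fell from 97.7 ± 3.36 (SD, n = 3) to 4.89 ± 4.82 (SD, n = 5; 2.81 without replicate 5), with a log2 fold change of -4.40 ± 0.59 (limma, adjusted p = 0.000114). Sp5 (chromosome 2, 70474923 to 70477729) stood at 58.5, 54.2 and 38.3 in the controls. It was listed at 0, 3.10, 0, 0 and 1.09 in the TAZ-CCl4 libraries, at most a few reads, since the value of 1 read was estimated at 0.37 to 1.09 in these libraries from the most frequent value below 10. Its log2 fold change was -5.04 ± 0.64 (limma, adjusted p = 7.66e-05), or -2.47 with a pseudocount of 10, which for Lgr5 gave -2.91.

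Of the zonated members, Tbx3 (chromosome 5, 119670669 to 119684724) stood at 535, 794 and 557 without treatment and at 54.3, 18.4, 58.6, 17.6 and 30.5 after TAZ-CCl4. The groups lay far apart, with a log2 fold change of -4.24 ± 0.41 (limma, adjusted p = 1.31e-05). Lect2 (chromosome 13, 56542464 to 56548502) stood at 3152, 2715 and 2590.1 and at 32.7, 16.6, 288, 28.4 and 290.2. TAZ-CCl4 replicates 3 and 5 stood well above the other 3 and far below the controls. The log2 fold change was -5.37 ± 0.90 (limma, adjusted p = 0.000457).

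Slc1a2 (chromosome 2, 102658659 to 102790784) had the largest fall of the 10. It stood at 2221, 2520.0 and 1809 without treatment and at 0, 3.07, 30.9, 6.04 and 28.9 after TAZ-CCl4, again highest in replicates 3 and 5. The log2 fold change was -8.13 ± 0.98 (limma, adjusted p = 5.35e-05), or -7.40 without TAZ-CCl4 replicate 1, where the gene is listed at 0. It was -6.75 with a pseudocount of 10. Rhbg (chromosome 3, 88242874 to 88254709) stood at 302, 189 and 175 in the controls and was listed at 0, 0, 2.94, 0 and 9.82 in the TAZ-CCl4 libraries. Only replicates 3 and 5 had a value above 0, and the log2 fold change was -6.68 ± 0.81 (limma, adjusted p = 5.76e-05). Without replicate 5 it was -7.26, and with a pseudocount of 10 it was -4.23. Rhbg shares exonic sequence with Gm38392 on the same strand, so reads could be split between them. Gm38392 stood at 59.2, 57.9 and 48.2 without treatment and at 3.91, 1.01, 0, 0 and 0 after TAZ-CCl4, so both were low there. The antisense genes Tbx3os1 and Gm13872 overlap exons of Tbx3 and Slc1a2.

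The order of levels among the members also changed, compared as group means of normalised counts per kb of exonic length. In the controls Lect2 led with 3067 per kb (2818 to 3429.7 over libraries), followed by Slc1a2 at 166 (138 to 192), Rhbg at 115 (90.4 to 156), Tbx3 at 94.9 (80.7 to 119.9) and Rnf43 at 72.5 (59.9 to 93.7). Below them came Znrf3 at 34.9 (28.8 to 42.2), Nkd1 at 24.8 (17.4 to 34.3), Axin2 at 24.8 (17.0 to 32.2), Sp5 at 24.0 (18.3 to 27.8) and Lgr5 at 9.52 (9.15 to 9.75). The ranges of Rhbg, Tbx3 and Slc1a2 met or overlapped in sequence, as did those of Tbx3 and Rnf43 and those of Znrf3, Nkd1, Axin2 and Sp5, so these neighbours were not separated. All 4 zonated genes thus stood above all 6 feedback genes by their control means. In the TAZ-CCl4 libraries Lect2 remained first at 143 per kb (18.0 to 316), but Rnf43 at 29.1 (20.8 to 48.0), Znrf3 at 26.2 (21.3 to 29.3), Nkd1 at 17.8 (15.6 to 22.3) and Axin2 at 10.8 (5.32 to 23.2) came next. Tbx3 followed at 5.42 (2.66 to 8.84), and Rhbg (0 to 5.07), Slc1a2 (0 to 2.35), Lgr5 (0.0759 to 1.29) and Sp5 (0 to 1.48) came last. Each gene here overlapped in range with the next.

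The contrast of the feedback group with the zonated group was also taken within each library, where the scaling of the library has no bearing except through the pseudocount. The mean log2(value + 1) of the 6 feedback members minus that of the 4 zonated members was -3.04, -2.56 and -2.54 in the controls. It was 2.04, 3.001, -0.75, 1.92 and -0.07 in TAZ-CCl4 replicates 1 to 5. The gap was higher in every TAZ-CCl4 library than in every control, by 3.94 on average, and nearest to the controls in replicates 3 and 5. The members were chosen with earlier results known, and no test was made of this gap. For single pairs, the log2 ratio of Axin2 to Slc1a2 was -4.03 ± 0.62 in the controls (SD, n = 3) and 2.76 ± 2.29 after TAZ-CCl4 (SD, n = 5). The difference of 6.79 gave p = 0.0179 in an exact two-sided permutation test over 56 splits, the smallest p this design can give, and adjusted p = 0.0357 over 4 ratios. The ratios of Axin2 to Tbx3 and Lect2 differed by 2.90 and 4.02 (exact permutation, adjusted p = 0.0357 for each). That to Rhbg, which entered the test through the controls alone, differed by 5.33 and is given as a description. Leaving out any 1 of the 8 libraries took the adjusted p of every ratio past 0.05 (0.0571 to 0.143, exact permutation). Fewer than 56 splits then remain and the smallest possible p is higher, so this loss is partly set by the design. These pairs are made of the same members chosen with results known, so their p-values are no independent support. No feedback member other than Axin2 was paired. Lgr5 and Sp5, also of the feedback group, had log2 fold changes of -4.40 and -5.04, beside -4.24 for Tbx3 and -5.37 for Lect2. Lgr5 and Sp5 entered the test through the controls alone. The contrast thus does not hold for each pair of a feedback and a zonated member.

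The scaling between libraries set whether the milder members counted as lower. The normalised values summed to 29.8 to 35.1 M per control library but only 12.4 to 14.2 M per TAZ-CCl4 library. With totals made equal, the median over all tested genes was 1.26 on the log2 scale, and 6.37% of them were lower and 76.3% higher. There, 6 members were lower, namely Lgr5 (-3.29), Sp5 (-4.25), Tbx3 (-3.01), Lect2 (-4.13), Slc1a2 (-7.06) and Rhbg (-5.85). Axin2 and Rnf43, both at -0.11, did not pass (limma, adjusted p = 0.827 and 0.726), and Znrf3 (0.84) and Nkd1 (0.81) were higher (limma, adjusted p = 0.00359 and 0.0217). Against the median of all genes, Znrf3 and Nkd1 were thus still on the lower side. The 7 hepatocyte genes Alb, Ttr, Apoa1, Apoh, Hnf4a, Serpina1c and Fgb served as a further reference, since they are made across the lobule. Centred on them, 4.35% of tested genes were lower, 83.2% higher, and the median was 1.64. The same 6 members were lower, by log2 fold changes from -2.62 for Tbx3 to -6.51 for Slc1a2. Axin2 (0.28) and Rnf43 (0.26) did not pass, and Znrf3 (1.22) and Nkd1 (1.19) were higher. The falls of Tbx3, Lect2 and Slc1a2 were therefore larger than the average fall of these hepatocyte genes. So were those of Lgr5, Sp5 and Rhbg, which entered the test only through the controls and are given as a description.

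**Figure D2:**
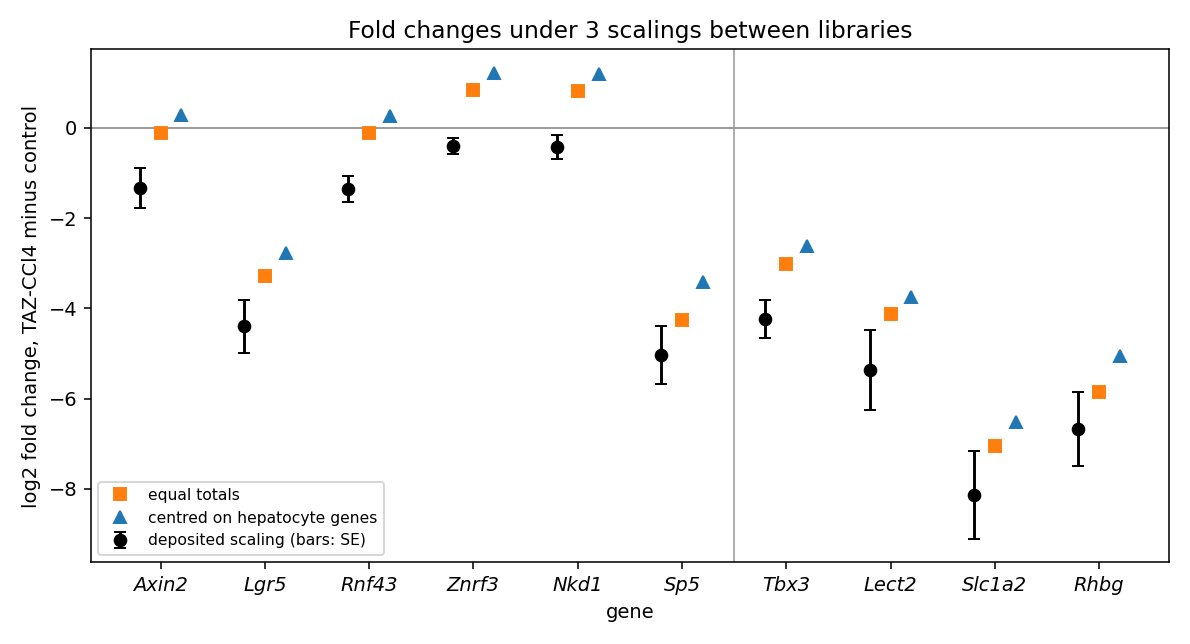
Log2 fold change of each gene, TAZ-CCl4 minus control, at the deposited scaling (black, bars are SE), with equal totals (squares) and centred on 7 hepatocyte genes (triangles). Lgr5, Sp5 and the 4 zonated genes are below 0 under all 3, while Znrf3 and Nkd1 cross 0.

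The TAZ-CCl4 libraries differed among themselves far more in Lect2 and Lgr5 than in Znrf3 and Nkd1. The highest TAZ-CCl4 value was 17.5 times the lowest for Lect2 and 17.0 times for Lgr5, the latter on few reads. It was 4.36 times for Axin2, 3.32 times for Tbx3 and 2.31 times for Rnf43. For Znrf3 and Nkd1 it was 1.37 and 1.43 times. Lect2, Slc1a2 and Rhbg were all highest in replicates 3 and 5. For Rhbg this rests on few reads and on how reads were split with Gm38392. That overlapping gene was above 0 only in TAZ-CCl4 replicates 1 and 2, at 3.91 and 1.01. The hepatocyte marker sum was also highest in replicates 3 and 5, at 1.05 and 0.960 M. In replicates 1, 2 and 4 it was 0.750, 0.808 and 0.728 M, and its highest value was 1.45 times its lowest. Alb made up most of this sum. The markers did not move as a set: Alb, Ttr, Hnf4a and Serpina1c were highest in replicates 3 and 5, but Apoa1, Apoh and Fgb in replicate 2. The part of the hepatocyte markers in the pattern was not tested. Lgr5 did not follow, being lowest in replicate 3, and Tbx3 was highest in replicates 1 and 3. Axin2 and Rnf43 were highest in replicate 2, where Lect2 and Tbx3 were at or near their lowest.

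**Figure D3:**
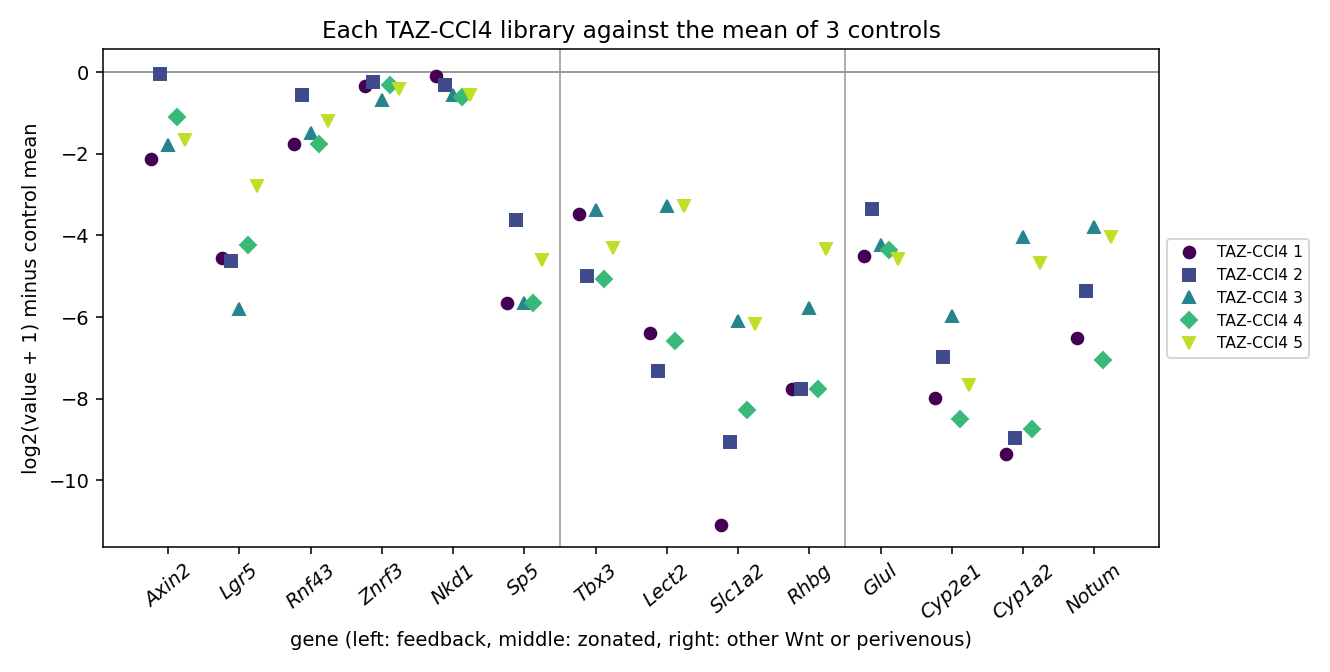
Log2(value + 1) of each TAZ-CCl4 library minus the mean of the 3 controls, for the 10 genes and for Glul, Cyp2e1, Cyp1a2 and Notum. Replicates 3 and 5 lie highest for Lect2, Slc1a2, Rhbg, Cyp1a2 and Notum, and Znrf3 and Nkd1 lie within 1 unit of 0 in all 5.

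Other perivenous genes moved in the direction of the zonated members. Of 20 such genes, all tested, 17 were lower, 1 higher and 2 not past the test (median log2 fold change -4.22), and 13 were lower and 2 higher at equal totals. Glul, which encodes glutamine synthetase, stood at 24019, 20234 and 17274 without treatment and at 890.3, 1987, 1088, 994 and 858 after TAZ-CCl4. Its spread among the TAZ-CCl4 libraries was smaller than that of Slc1a2, and it was highest in replicate 2, not in replicates 3 and 5. Cyp2e1, whose enzyme activates CCl4, had a log2 fold change of -7.41 ± 0.46, Cyp1a2 of -7.15 ± 1.18 and Nr1i3, which encodes the nuclear receptor CAR, of -6.31 ± 0.64. Cyp1a2 stood at 29.3, 38.9, 1219, 45.7 and 784 in TAZ-CCl4 replicates 1 to 5, high in the same libraries as Lect2 and Slc1a2. Only Slc13a3, a dicarboxylate transporter gene, rose, from 346 ± 77.2 (SD, n = 3) to 892 ± 455 (SD, n = 5).

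The periportal side of the lobule was lower as well. Of 16 periportal genes, 12 were lower, 2 higher and 2 not past the test (median log2 fold change -1.96), and 8 were lower and 4 higher at equal totals. Cyp2f2 had a log2 fold change of -4.31 ± 0.34 and the histidine ammonia lyase gene Hal of -3.82 ± 0.52. Aldh1b1 (0.80 ± 0.26) and Ctsc (0.61 ± 0.22) were higher. The medians of the zonated members, of the other perivenous genes and of the periportal genes are given side by side, and the difference between these lists was not tested.

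Wnt targets known from other tissues moved in both directions. Of 24 listed, 15 were tested, and 8 were higher, 3 lower and 4 did not pass (median log2 fold change 1.75). At equal totals 11 of the 15 were higher and 1 lower, shares near the 76.3% and 6.37% of all tested genes. The exception at equal totals was Notum, which encodes a secreted enzyme that inactivates Wnt ligands and is itself a feedback gene. Notum stood at 667, 835 and 629 without treatment and at 6.71, 16.0, 49.7, 4.32 and 42.0 after TAZ-CCl4, with a log2 fold change of -5.36 ± 0.69 (limma, adjusted p = 8.37e-05). Birc5, an inhibitor of apoptosis expressed in dividing cells, rose by 3.53 ± 0.43 on the log2 scale, the adhesion receptor gene Cd44 by 3.38 ± 0.22 and the biliary and progenitor factor Sox9 by 3.31 ± 0.20. Jun and Vegfa fell, with log2 fold changes of -1.60 and -1.44 that were -0.34 and -0.19 and did not pass at equal totals, and 0.02 and 0.18 centred on hepatocyte genes. Nkd2, the paralog of Nkd1 and named here after its values were seen, rose from 9.13 ± 4.01 (SD, n = 3) to 78.8 ± 39.6 (SD, n = 5). All 6 cholangiocyte markers were higher, with a summed level of 1867 to 2551 in the controls and 33608 to 119830.0 in the TAZ-CCl4 libraries. Of these, Krt7, a biliary keratin gene, rose by 5.15 ± 0.59 on the log2 scale. Sox9 is on both lists, and the part of these cells in the rise of the Wnt targets was not tested.

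**Figure D4:**
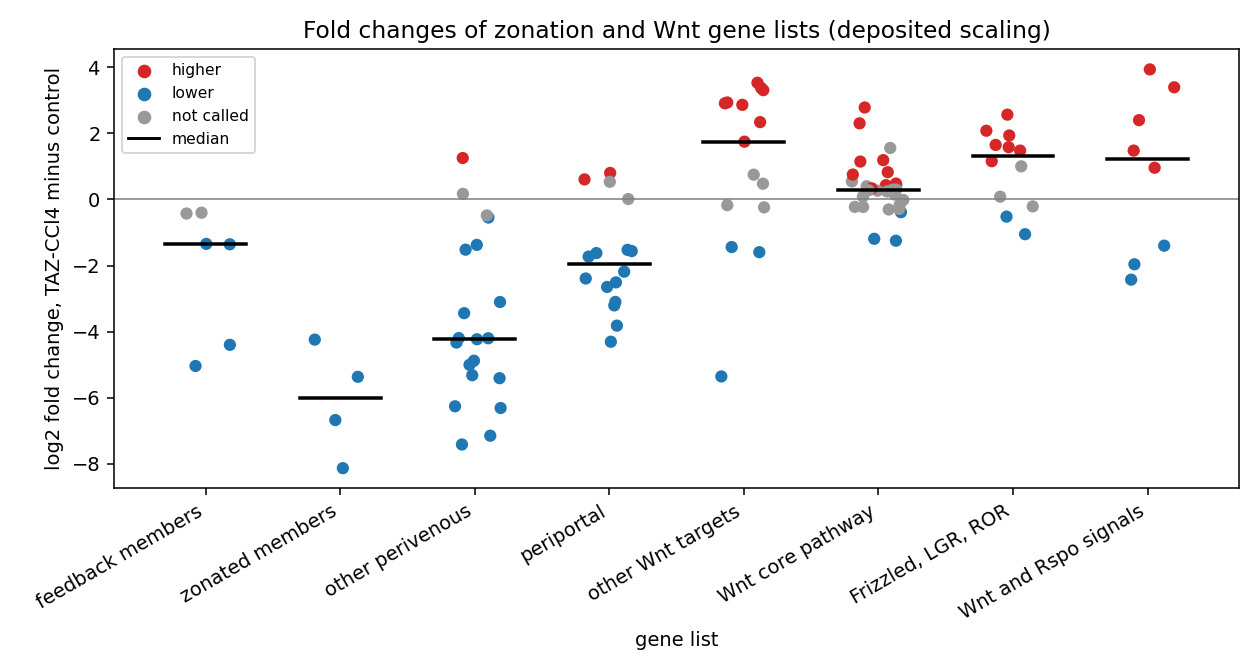
Log2 fold change, TAZ-CCl4 minus control at the deposited scaling, of the tested genes of 8 lists, 1 point per gene, with red for higher, blue for lower, grey for not passing and a bar at the list median. The zonated members and other perivenous genes lie lowest, and the other Wnt targets lie on both sides of 0.

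Among the signals that reach these cells, Rspo3, the R-spondin gene of the central vein, stood at 49.0, 77.2 and 87.5 without treatment and at 33.5, 17.6, 33.4, 15.0 and 37.1 after TAZ-CCl4. All 5 were below the lowest control (log2 fold change -1.40 ± 0.38; limma, adjusted p = 0.00894), but at equal totals the value was -0.18 and centred on hepatocyte genes 0.22, and neither passed. The endothelial ligand genes Wnt2 (-2.43 ± 0.91) and Wnt9b (-1.96 ± 0.63) were lower, and did not pass at equal totals (-1.42 and -0.85). Wnt2 stood at 22.6, 37.4 and 22.8 and at 1.81, 4.14, 25.5, 0 and 8.73, so replicate 3 overlapped the controls. Of the 8 tested genes of the list of central vein signals and endothelial genes, these 3 were lower, and Wnt4, Wnt5a, Wnt11 and the endothelial genes Thbd and Cdh13 were higher. Wnt4 rose by 3.39 ± 0.34 and Thbd, which encodes thrombomodulin, by 2.40 ± 0.39 on the log2 scale. Of 6 sinusoidal endothelial markers 3 were higher and 2 lower, among them Cdh5 (1.93) and Clec4g (-2.65, which did not pass at equal totals, at -1.41). Their summed level was 1604 to 2888 without treatment and 2184 to 3225 in the TAZ-CCl4 libraries, and their part in the values of Rspo3, Wnt2 and Wnt9b was not tested.

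Lgr4, the paralog of Lgr5, fell from 1375 ± 71.3 (SD, n = 3) to 674 ± 138 (SD, n = 5), a log2 change of -1.05 ± 0.17 (limma, adjusted p = 0.00041). At equal totals its value was 0.20 and did not pass, and centred on hepatocyte genes it was higher, at 0.57. Of 12 tested receptor genes 7 were higher and 2 lower (11 higher at equal totals), with Ror1, a receptor tyrosine kinase-like Wnt receptor, higher by 1.94 ± 0.21. Ctnnb1, which encodes beta-catenin, stood at 3832, 3921 and 3612 and at 4185, 4101, 4028, 6825 and 4144. Every TAZ-CCl4 library was above every control, yet the log2 fold change of 0.27 ± 0.18 did not pass (limma, adjusted p = 0.228), and at equal totals it was 1.52 and passed. Of 30 core pathway genes, 10 were higher, 3 lower and 17 not past the test (median log2 fold change 0.30), and the higher share is near the 32.4% of all tested genes. At equal totals 28 were higher and 0 lower, where 76.3% of all tested genes were higher. The kinase gene Csnk1e (2.30 ± 0.19), Pygo1 of the beta-catenin transcription complex (2.78 ± 0.65) and Dvl2 (1.19 ± 0.19) rose. Tle1, a corepressor gene (-1.25 ± 0.14), Dvl1 (-1.19 ± 0.19) and Gsk3a (-0.39 ± 0.10) fell at the deposited scaling. At equal totals Tle1 and Dvl1 were at 0.00 and 0.06 and did not pass, and Gsk3a was higher at 0.87.

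The tested genes whose centred log2 values lay nearest to those of Axin2 over the 8 libraries were Sds, Gm14403 and Phf11c, with root mean square differences of 0.297, 0.301 and 0.310. Nearest to Slc1a2 were Sult5a1, Csrp3 and Mup-ps19, at 0.821, 0.838 and 0.908. By this measure Slc1a2 had no neighbour as close as Axin2 had, but the measure was not scaled to the size of the change. The log2 fold change was -8.13 for Slc1a2 and -1.34 for Axin2. Sult5a1 fell from 1005 to 7.67 normalised counts and Csrp3 from 601 to 5.03, as group means.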

How the data were processed

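The authors deposited 1 table of normalised counts, a signal made by scaling estimated gene counts between libraries. The table's name gives kallisto and DESeq2, and DESeq2 and mm10 appear per the submitters' processing notes. The transcript annotation and tool versions are not given in these sources. Reads behind a value are known only as an estimate, and groups of 3 and 5 libraries limit the precision.

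Of 35204 symbols, 14171 averaged 10 or more across the 8 libraries and entered the test on log2(value + 1), a scale that understates changes of low genes, with limma 3.58.1 (R 4.3.3, trend in the prior variance), adjusted by Benjamini-Hochberg over all of them at 0.05. Library project coincides with group, so no covariate was used. Ratios of single genes were tested by exact permutation. The fit was tested on simulated data. Alternatives were other scalings, pseudocounts, filters, prior variance, each library left out and a replicate block. Exonic lengths and positions are from GENCODE M21.

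Members and lists were chosen with earlier results of these data known. Genes outside the members were named by rule among those that passed: the 3 largest rises and falls whose higher group mean is at least 50 in the perivenous, Wnt target and core lists, 2 in the periportal and signal lists and 1 in others. Named in any case were Glul, Cyp2e1, Ctnnb1, Rspo3, Wnt2, Wnt9b, Lgr4 and the 3 genes nearest to Axin2 and to Slc1a2. In the remaining marker lists, 3 of 6 stellate, 3 of 6 macrophage and 1 of 5 T and B cell genes were higher and 0 lower, with Col1a1 and Csf1r the largest rises at 4.22 and 3.87. Of 7 hepatocyte genes 6 were lower, with Ttr lowest at -2.88, and of 5 central vein endothelial genes 2 were higher and 3 lower.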

Additional observations from a re-analysis of the deposited data

Results flagged for a closer look

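Lgr5 stood at 13.2 normalised counts in TAZ-CCl4 replicate 5, apart from the 0.779 to 4.27 of the other 4 TAZ-CCl4 libraries. Its gap to the nearest of them took 0.719 of the range of the group, above the 0.71 at which 1 of 5 values is set apart by Dixon's rule. It was the only member set apart among the 10 in the TAZ-CCl4 group, and chance sets apart about 1 in 20 groups. The value is still far below the 93.9 to 100.1 of the controls, and without that library the log2 fold change of Lgr5 was -4.80.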

How the results depend on the processing

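Lgr5, Sp5, Tbx3, Lect2, Slc1a2 and Rhbg were lower under every alternative in which they were tested. Sp5 and Lgr5 were not tested with a filter at a mean of 50. Lgr5, Sp5 and Rhbg entered the test only through the controls, so their calls are given as a description. The milder members depended on the scaling. Znrf3 was at 0.84 with equal totals, 0.43 with equal totals without Mup and mitochondrial genes and 1.22 centred on hepatocyte genes, and Nkd1 at 0.81, 0.40 and 1.19. Axin2 and Rnf43 were at 0.28 and 0.26 when centred on hepatocyte genes. With equal totals and centred on hepatocyte genes 2 of the 10 members were higher, against 0 as deposited. Of all tested genes, 76.3%, 83.2% and 32.4% were higher under these 3 scalings, so the members were higher less often than genes at large. After quantile normalisation 10 were lower, where 8168 of all tested genes were called in either direction. Apart from quantile normalisation, these scalings by their construction move all genes of a library together; which scaling is right was not tested. Leaving out 1 library gave 7 to 9 members lower, where 7615 to 8855 of all tested genes were called in either direction. The differences of the feedback minus zonated gap were 3.50 to 4.44. The log2 ratios of Axin2 then rose by 2.39 to 3.28 for Tbx3, 3.21 to 4.65 for Lect2, 6.23 to 7.41 for Slc1a2 and 4.74 to 6.00 for Rhbg. Every ratio lost its call under each omission, with adjusted p of 0.0571 to 0.143 by exact permutation. With fewer splits the smallest possible p is higher, so this loss is partly set by the design. With a replicate block over replicates 1 to 3, 7366 genes passed against 8822, and 8 members were again lower. Deviations of same-numbered libraries correlated at -0.0658, -0.0758 and -0.0898, and those of differently numbered ones at -0.00325 to 0.0777. Deviations within 3 libraries sum to 0, so these correlations cannot decide whether the numbers pair the samples. A pseudocount of 10 moved Lgr5 to -2.91, Sp5 to -2.47, Slc1a2 to -6.75 and Rhbg to -4.23, and one of 0.5 moved Sp5 to -5.74 and Rhbg to -7.33. The replicate block moved Slc1a2 to -8.74 and Lgr5 to -4.99. Values of a few normalised counts, as for Sp5 and Rhbg in the TAZ-CCl4 libraries, rest on few reads.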

Other observations

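Some listed genes lay below the mean needed for the test and are given as values. Sp8, the paralog of Sp5, stood at 15.1, 9.65 and 13.2 without treatment and at 1.81, 1.03, 4.91, 3.65 and 2.18 after TAZ-CCl4, so the groups did not overlap. The R-spondin gene Rspo1 stood at 10.9, 11.7 and 3.50 and at 0, 0, 0.953, 0.709 and 2.12. Apcdd1, which encodes a membrane inhibitor of Wnt signalling, was the other way round, at 0, 0 and 1.16 without treatment and at 4.38, 5.01, 4.75, 10.2 and 6.45 after TAZ-CCl4. These values are all low, and those of a few normalised counts or less rest on few reads.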
